A study of Mus musculus with 2 samples.

Results

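Marcks, the non-muscle myosin II heavy chains and the proteins that tie cortical actin to the plasma membrane form a group of 10 genes, out of 16385 measured in mouse Th17 cells with and without Malat1. They were chosen by name. Marcks and Myh10 entered because the deposited comparison put them lower in Malat1 knockout cells, and Marcksl1, Myh9, Actn1, Actn4, Flna, Vim, Ezr and Msn entered as their paralogs or as other cortical actin and filament genes. The fold changes and p-values of that comparison therefore chose part of the group, and they are given below as a description. Malat1 is a long non-coding RNA of the nucleus, and the study compared the transcripts of Th17 cells, a helper T cell class named for IL-17, in its presence and absence. The cells analysed here were 2 libraries of Malat1 knockout cells of strain C57BL/6, which the submitters call independent biological replicates. Naive CD4+ T cells had been cultured for 72 h with antibodies to CD3ε (plate-bound, 0.25 µg/mL) and CD28 (1 µg/mL) and with the cytokines IL-6 (20 ng/mL) and TGF-β (0.1 ng/mL), and RNA was sequenced after depletion of ribosomal RNA. The sources used here do not give the age of the mice or how the allele was made. One label of replicate 2 reads Malat2 knockout where the title reads Malat1, which was followed. The level of Malat1 is not analysed here, and the genotype rests on the titles.

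The wild-type cells come from another series, so genotype and series cannot be told apart. Their library columns were not used here, and a check of each wild-type library for RNA of other cells was not made. The wild-type level of a gene is given as the implied wild-type mean, which is what the authors' mean over all 4 libraries leaves once both knockout values are taken out. It gives no spread between the wild-type libraries, so a knockout library below it need not lie below each wild-type library. The knockout libraries held 21554852 and 26916169 counts. They carried T cell and Th17 transcripts at high levels, with Cd4 at normalized counts of 14511 and 13921 and Il17f at 63523 and 60211. All 10 measured genes of T cell and Th17 identity had positive log2 fold changes (knockout relative to wild type) in the authors' deposited table, with a median of 0.18. Among them Il17f (0.40, SE 0.081, adjusted p 0.00124 by the authors' DESeq2; implied wild-type mean 46851) was the 1 gene of the whole table called higher. Of the 10540 genes averaging at least 50 in knockout, 5423 had positive log2 fold changes, and the median over all 10540 was 0.0045. What lies behind the signs of the T cell and Th17 genes was not tested. Normalized counts are raw counts divided by the authors' size factor for each library.

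Marcks and its smaller paralog Marcksl1 encode acidic proteins that lie on the inner face of the plasma membrane, bind actin, calmodulin and the lipid PIP2 there, and leave the membrane when protein kinase C phosphorylates their basic effector domain. Myh9 and Myh10 encode the heavy chains of non-muscle myosin IIA and IIB, the motors that contract cortical actin; T cells use mainly IIA to migrate and to form the immune synapse. Alpha-actinins (Actn1, Actn4) and filamin A (Flna) crosslink actin filaments, ezrin (Ezr) and moesin (Msn) of the ERM family tie filaments to membrane proteins, and vimentin (Vim) forms the intermediate filaments beneath the cortex.

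The coding sequence of the basic effector domain shows how alike the MARCKS paralogs are where they meet the membrane, and it is printed for that reason. Lysine codons (AAA and AAG) are in capitals. The first line is the window of 25 codons richest in lysine codons in Marcks, codons 145 to 169 at chr10:37136531-37136605 on the minus strand, and the second is the window of Marcksl1 with most bases equal to it, codons 86 to 110 at chr4:129514885-129514959 on the plus strand (GRCm38, GENCODE M21).
Marcks: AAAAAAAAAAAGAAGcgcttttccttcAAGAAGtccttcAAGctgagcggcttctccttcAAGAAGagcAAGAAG
Marcksl1: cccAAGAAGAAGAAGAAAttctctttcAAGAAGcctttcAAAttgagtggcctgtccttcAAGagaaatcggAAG
Of the 75 bases, 52 were equal at the same position. The window held 12 lysine codons in Marcks, of 23 in its 309 codons, and 10 in Marcksl1, of 18 in 200. Over the whole transcripts the paralogs share little sequence: 0.0750% of the 50-base words of the Marcks transcript and 1.61% of those of Marcksl1 occur in transcripts of any other gene. The gene sharing most of these words was B930086L07Rik for Marcks and Gm9089 for Marcksl1, not the paralog. The highest share after Marcksl1 was 1.12%, in Myh9, where most shared words belong to Myh10.

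The RefSeq promoter table (GRCm38.p6, 250 bases before to 50 after the start) holds 9 of the 10 genes and has no entry for Marcks. The promoters of Myh10, which was called lower, and of its paralog Myh9, which was not called, are printed to show how they differ. CCAAT and CATTCC, the latter the core word bound by TEAD factors, are in capitals on either strand (as ATTGG and GGAATG on the other), and in these windows the marked words do not overlap. Myh10 is at chr11:68691665-68691964 on the plus strand and Myh9 at chr15:77842126-77842425 on the minus strand.
Myh10: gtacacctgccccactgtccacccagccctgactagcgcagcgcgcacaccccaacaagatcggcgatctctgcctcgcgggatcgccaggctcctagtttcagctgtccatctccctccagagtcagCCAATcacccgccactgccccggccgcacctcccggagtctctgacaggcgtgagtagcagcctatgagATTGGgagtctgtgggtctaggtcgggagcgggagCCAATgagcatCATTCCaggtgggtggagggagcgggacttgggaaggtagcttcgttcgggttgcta
Myh9: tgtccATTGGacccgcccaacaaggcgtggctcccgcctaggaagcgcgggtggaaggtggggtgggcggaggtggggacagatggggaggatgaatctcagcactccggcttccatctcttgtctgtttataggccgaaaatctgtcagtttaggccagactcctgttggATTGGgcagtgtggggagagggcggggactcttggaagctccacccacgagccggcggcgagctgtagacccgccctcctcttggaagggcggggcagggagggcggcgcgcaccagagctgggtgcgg
The Myh10 window held CCAAT 3 times, CATTCC 1 time and GGGCGG, the Sp1 box, 0 times. The Myh9 window held CCAAT 2 times, CATTCC 0 times and GGGCGG 6 times. On both strands of all 32851 promoters of this length, CCAAT occurs in 37.4%, CATTCC in 14.7% and GGGCGG in 35.7%. The CArG box, the site of serum response factor, occurs in 1.63% of them and in 0 of the 9 windows here. These are matches of letters and say nothing of whether a factor binds.

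All 10 genes were well expressed in the knockout cells. Levels of different genes are compared as TPM, that is counts per base of the longest protein-coding transcript, scaled to 1 total in every library. Vim was highest at 3854 ± 485 TPM (SD, n = 2 here and for each TPM below), rank 22 of all genes. The ERM genes followed, Msn at 511 ± 0.902 and Ezr at 315 ± 2.37. Actn4 (234 ± 2.86), Myh9 (227 ± 13.1), Marcksl1 (223 ± 19.9) and Flna (196 ± 24.9) came next, and the ranges of the libraries overlapped between each of these and its neighbour in that order. Actn1 stood below them at 72.4 ± 6.79. Myh10 (21.7 ± 3.11) and Marcks (21.1 ± 6.28) were lowest, with overlapping ranges. In knockout Marcks and Myh10 were thus each the minor paralog of their pair. Marcksl1 exceeded Marcks 12.5-fold and 9.28-fold in the knockout replicates, and Myh9 exceeded Myh10 11.2-fold and 9.90-fold. Actn4 exceeded Actn1 3.44-fold and 3.06-fold, and Msn exceeded Ezr 1.63-fold and 1.61-fold. Per base of the union of all annotated exons the last ratio shrank to 1.03 and 1.02, because more exon sequence is annotated for Msn.

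**Figure D1:**
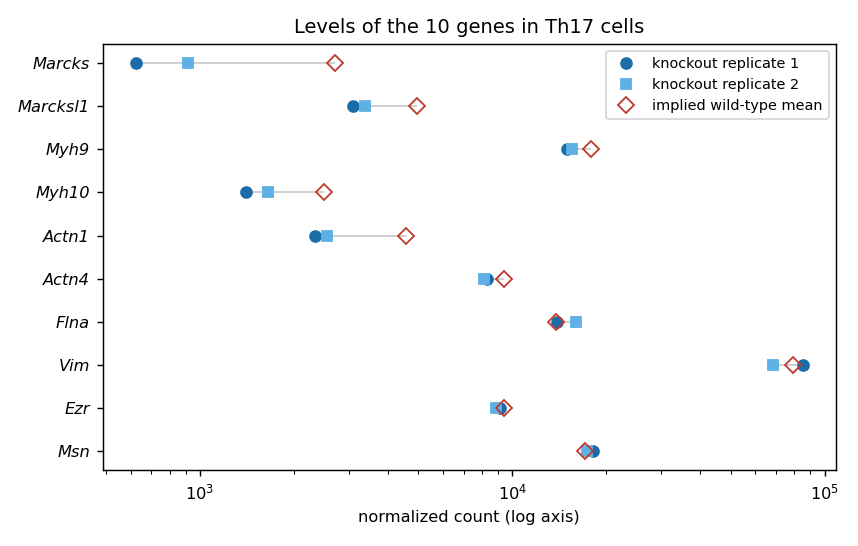
Normalized counts of the 10 genes (log axis) in each knockout library (filled symbols) and the implied wild-type mean (open diamonds), with a grey line across the range. Marcks lies at 624 and 916 in knockout against an implied wild-type mean of 2718, while the symbols of Ezr and Msn nearly coincide.

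Marcks showed the largest difference of the group. Its normalized counts were 624 and 916 in the knockout replicates (645 and 1207 raw counts), and the implied wild-type mean was 2718. Both knockout libraries lay far below that mean. The authors' deposited table gives Marcks, at chr10:37133375-37138920, a log2 fold change, knockout against wild type, of -1.63 (SE 0.33), a 3.10-fold lower level; the adjusted p by the authors' DESeq2 is 0.00128. The knockout libraries themselves differed 1.47-fold, a log2 ratio of 0.55 that exceeds those of 98.1% of the 10540 genes averaging at least 50 in knockout. With replicate 1 alone the log2 ratio to the implied wild-type mean was -2.12, and with replicate 2 alone it was -1.57. In bulk RNA, fewer cells that express a gene and less RNA per cell cannot be told apart.

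Marcksl1 had normalized counts of 3102 and 3372 in knockout against an implied wild-type mean of 4953. Both knockout values lay below that mean. In the authors' deposited table its log2 fold change was -0.46 (SE 0.31), and the adjusted p was 1.00 by the authors' DESeq2. The kinases and partners of the MARCKS proteins held no called gene. Of 16 genes for protein kinase C isoforms, calmodulins, PIP2 kinases, phospholipase C and protein phosphatase 2A, 0 were called by the authors' DESeq2. Of all genes with an adjusted p, 0.152% were called lower and 0.00691% higher. Nothing is therefore read from 0 calls in this list or in the lists below. In this list 1 gene was lower and 0 higher at an unadjusted p under 0.05, beside 1.72% and 0.391% of all genes. The median log2 fold change was -0.041 beside -0.0032 over all genes averaging at least 50. The lower gene of the list was the calmodulin gene Calm2, at 5143 and 5310 in knockout against an implied 6667 in wild type (log2 fold change -0.33, SE 0.16, in the authors' deposited table). The largest difference was that of Prkcz, the zeta isoform, at 143 and 163 against 211 (-0.40, SE 0.58, on the log2 scale in the authors' deposited table). Prkch, the eta isoform of protein kinase C, stood at 7847 and 6980 against 6501.

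Myh10 was the other member called lower. Its normalized counts were 1405 and 1649 in knockout, and the implied wild-type mean was 2494. Both knockout libraries lay below that mean, and they differed from each other 1.17-fold. For Myh10, at chr11:68691559-68816632, the authors' deposited table has a log2 fold change of -0.70 (SE 0.17), a 1.63-fold lower level; by the authors' DESeq2 the adjusted p is 0.0282. The call is lost, at an adjusted p of 0.0582, when genes all but absent from knockout are left out of the adjustment. Myh9 stood at 14983 and 15578 in knockout against an implied 17897. Its log2 fold change of -0.19 (SE 0.18) in the authors' deposited table was smaller than that of Myh10 and did not pass.

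The light chains and regulators of myosin II held no called gene. Of 17 such genes 0 were called by the authors' DESeq2, beside 0.152% lower and 0.00691% higher of the genes with an adjusted p. The 17 genes had a median log2 fold change of -0.017. There 1 was lower and 1 higher at an unadjusted p under 0.05, beside 1.72% and 0.391% of all genes. The essential light chain Myl6 stood at 11070 and 9424 in knockout against an implied 16967 in wild type, a log2 fold change of -0.59 whose SE in the authors' deposited table was 0.75. Rhoa, a GTPase that promotes myosin II activity, stood at 7601 and 7405 against 8233. Myl9, the regulatory light chain of smooth muscle, had 0 counts in both knockout libraries, which allows up to 2.90 and 2.28 normalized counts, and an implied wild-type mean of 1045. The light chain genes Myl12a and Myl12b, named outside the rule, stood above their implied means. Myl12a stood at 4020 and 3844 against 3686 (log2 fold change 0.093, SE 0.13, in the authors' deposited table). Myl12b stood at 217 and 203 against 165 (0.36, SE 0.54). The lower gene was Ppp1cb, the catalytic subunit of myosin phosphatase (log2 fold change -0.44, SE 0.17, in the authors' deposited table), named after its values were seen. The higher one was the GTPase-activating protein gene Arhgap45, at 0.29 (SE 0.13) in the authors' deposited table.

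Among the crosslinkers Actn1 had a fold change as large as that of Myh10 but a wider error. Its normalized counts were 2332 and 2552 in knockout, and the implied wild-type mean was 4560. Both knockout libraries lay well below that mean, of which their average was 53.6%. Actn1 has a log2 fold change of -0.75 (SE 0.32) in the authors' deposited table, with an unadjusted p of 0.0188 and an adjusted p of 1.00 (the authors' DESeq2). Actn4 stood at 8324 and 8117 against an implied 9400 (log2 fold change -0.19, SE 0.13, in the authors' deposited table). Flna stood at 13958 and 16013 against an implied 13773, with a log2 fold change of 0.12 (SE 0.096) in the authors' deposited table. Its value hung on the library, at 0.22 with replicate 2 alone and 0.019 with replicate 1 alone. None of these 3 genes passed the adjusted threshold.

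For Ezr and Msn the knockout libraries stood near the implied wild-type mean. Ezr stood at 9173 and 8885 in knockout against an implied 9412, and Msn at 18117 and 17406 against 17165. Both knockout libraries lay just below the implied mean for Ezr and just above it for Msn. In log2 units the authors' deposited table puts Ezr at -0.053 (SE 0.12) and Msn at 0.049 (SE 0.082). Radixin (Rdx), the third ERM gene, named outside the rule, stood at 3436 and 3758 against 4334, a log2 fold change of -0.27 (SE 0.14) in the authors' deposited table that did not pass. Of 13 ERM partners and regulators 0 were called by the authors' DESeq2, beside 0.152% lower and 0.00691% higher of the genes with an adjusted p. The list had 0 lower and 3 higher at an unadjusted p under 0.05, beside 1.72% and 0.391% of all genes. Such shares of all genes, here and for the other lists, include genes with few counts. Of the 7043 genes that average at least 500 and are not all but absent from knockout, 88 were lower and 64 higher by that p. The 3 higher genes of the list were Stk10, Selplg and Spn. Stk10, a kinase of ERM proteins, stood at 3893 and 3727 against 3152. The sialomucin genes Selplg and Spn stood at 7929 and 6220 against 5737 and at 12415 and 11798 against 10718.

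Vim was the most abundant of the 10 genes and had the widest gap in normalized counts between its libraries. Its normalized counts were 85039 and 68191 in knockout, on either side of the implied wild-type mean of 79283. Its log2 fold change in the authors' deposited table was -0.047, with an SE of 0.33. With replicate 2 alone the log2 ratio was -0.22, and with replicate 1 alone it was 0.10, so its sign depended on the library.

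By the authors' adjusted p under 0.05, 2 of the 10 genes were thus called lower, beside 0.152% of the 14481 genes with an adjusted p, and 0 were called higher, beside 0.00691%. Since that comparison chose Marcks and Myh10, nothing is read from the count of lower genes, nor from the median and signs of the group given next. Just inside the threshold stood Nfib (0.0422), and just outside it Hspa5 (0.0529) and Picalm (0.0543), by the adjusted p of the authors' DESeq2 in the authors' deposited table. Of the 8 that did not pass, Actn1 alone had an unadjusted p under 0.05, where 1.72% of all genes were lower and 0.391% higher. The 10 log2 fold changes had a median of -0.19, beside 0.0087 over the 7043 genes that average at least 500 and are not all but absent from knockout. Of the 10, 8 were negative, beside 3309 of those 7043.

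**Figure D2:**
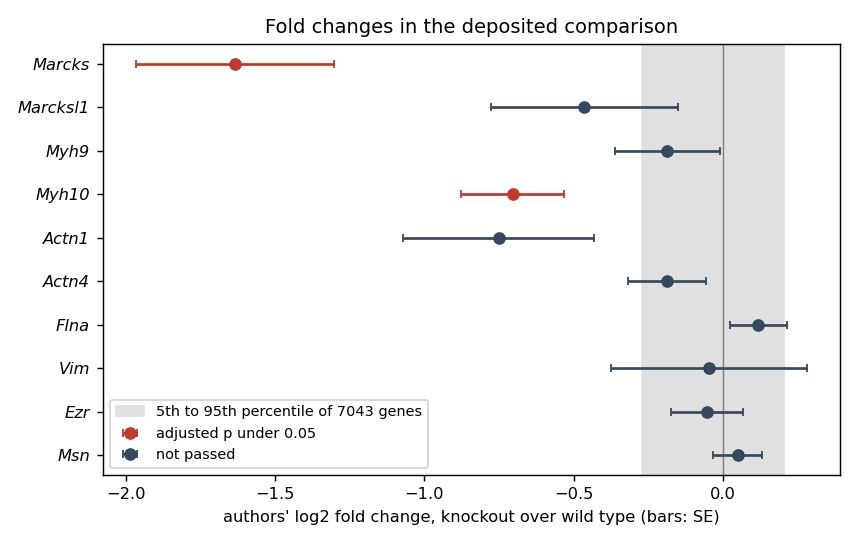
The authors' log2 fold change of each gene, knockout over wild type, with its SE (bars), and the 5th to 95th percentile of 7043 well expressed genes (grey band, -0.27 to 0.20). Marcks, Myh10, Actn1 and Marcksl1 lie below the band, and the first pair is marked as called.

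The members differed in how precise their fold changes were. The SE that the authors' deposited table gives was compared with the median SE of the 200 genes nearest in mean. It was close to that median for Msn (0.937 times), Myh10 (0.956) and Flna (1.05), and somewhat above it for Ezr (1.14) and Actn4 (1.25, the 92.4th percentile). It was larger for Marcks (1.76 times), Myh9 (2.0), Actn1 (2.22), Marcksl1 (2.28) and Vim (3.90), all above the 95th percentile of 1.34 over the 7043 genes. The SD of the log2 values between knockout replicates was 0.092 for Actn1, 0.085 for Marcksl1 and 0.040 for Myh9, against SEs of 0.32, 0.31 and 0.18. For Marcks and Vim that SD was 0.39 and 0.23, against SEs of 0.33 and 0.33.

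A further measure set apart the same genes other than Vim. The authors' fitted log2 fold change and the log2 ratio of the knockout mean to the implied wild-type mean were compared in the same way: over those 7043 genes the median distance was 0.0015 and the 95th percentile 0.019. They lay 0.19 apart for Marcks, 0.15 for Actn1, 0.15 for Marcksl1 and 0.042 for Myh9, with the ratio of means the lower in each. For Myh10 they lay 0.0032 apart, and for Vim 0.0020. Of the members called lower, Myh10 had a small gap and an SE of usual size, and Marcks had the largest gap of the 10. Whether either measure bears on how sound a call is was not tested. The authors label the deposited comparison multifactor, but which factors they modelled is not stated in the sources used here. The cause of these gaps was not tested.

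**Figure D3:**
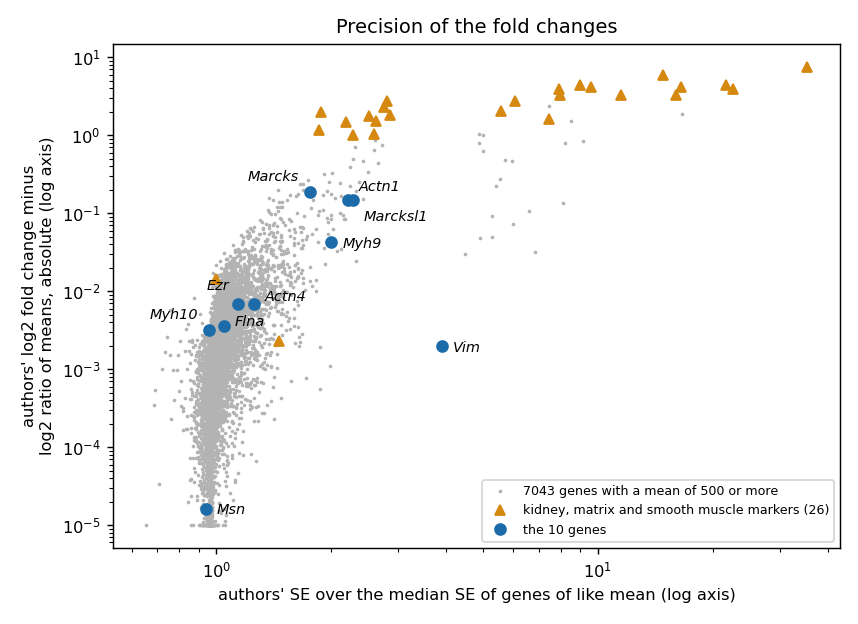
For each gene, the authors' SE over the median SE of genes of like mean (x, log axis) and the absolute distance between the authors' log2 fold change and the log2 ratio of means (y, log axis). Grey points are 7043 genes, triangles 26 kidney, matrix and smooth muscle markers with a mean of 50 or more and a knockout count, and circles the 10 genes. Marcks, Actn1, Marcksl1 and Myh9 lie above the 95th percentile of 0.019 in distance, and Myh10 lies below it at 0.0032.

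Transcripts of kidney tubule, and some of matrix and smooth muscle, were all but absent from knockout and present in the implied wild-type mean, and these values stand beside every lower member. All but absent means an implied wild-type mean of at least 100 with under 2% of it in knockout. It held for 14 of 16 kidney tubule markers and 7 of 16 fibroblast and matrix markers. It also held for 4 of 11 smooth muscle markers and 4 of 9 endothelial markers. Of all 16385 genes 235 met it, and 1425 had 0 counts in both knockout libraries. The 16 kidney tubule markers summed to 61.9 and 72.9 normalized counts in the knockout libraries and to 35552 in the implied wild-type mean, with 5 at 0 counts in both knockout libraries, among them Lrp2 and Miox. Kap (11576) and Gpx3 (12860) made up most of that implied sum. By the authors' DESeq2 4 of the 16 were called lower, beside 0.152% of the genes with an adjusted p, and 12 did not pass. Their SEs had a median of 8.83 times the median SE of genes of like mean. How the implied sum divides between the wild-type libraries was not examined. The 16 fibroblast and matrix markers summed to 5782 and 6574 in knockout and to 24515 in the implied wild type, with 4 at 0, among them Col1a2. The proteoglycan gene Lum made up most of the knockout sum, at 5267 and 6082 against an implied 5277, and Dcn, also a proteoglycan gene, stood at 61.9 and 48.6 against 55.9. Igfbp7 (219 and 205 against 1795) and the collagen gene Col5a1 (104 and 106 against 536) were present in knockout at lower levels. The 11 smooth muscle markers summed to 66.7 and 50.1 in knockout and to 5424 in the implied wild type, with 2 at 0. The endothelial list of 9 summed to 943 and 833 against 2700, with 3 at 0 and with Pecam1, which knockout cells also express, at 726 and 654.

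Markers of other blood cells, erythroid and platelet genes excepted, had sums that differed less. The summed levels in knockout and in the implied wild type were 1932 and 1668 against 1708 for 13 myeloid and dendritic genes, with 1 at 0. They were 1100 and 1190 against 1130 for 6 B cell genes, with 0 at 0, and 622 and 557 against 562 for 7 CD8 and NK genes, with 2 at 0. For 9 erythroid and platelet genes they were 49.3 and 61.5 against 142, with 3 at 0. Cd74 made up most of the myeloid and dendritic sum, at 1778 and 1551 against an implied 1519. Ebf1 made up most of the B cell sum, at 1091 and 1183 against 1109. The authors' log2 fold changes had medians of -0.62 (myeloid and dendritic), -1.21 (B cell) and 0.0095 (CD8 and NK). A mean of at least 50 was reached by 2, 1 and 3 genes of these lists, in that order. The sums say little of the others. Fibroblasts, smooth muscle and endothelium express several of the 10 genes, Marcks, Myh10, Actn1 and Vim among them. The implied wild-type mean exceeded the knockout mean by 1948 normalized counts for Marcks, 2118 for Actn1, 1716 for Marcksl1 and 967 for Myh10. The part of RNA from other cells in the lower members was not tested.

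**Figure D4:**
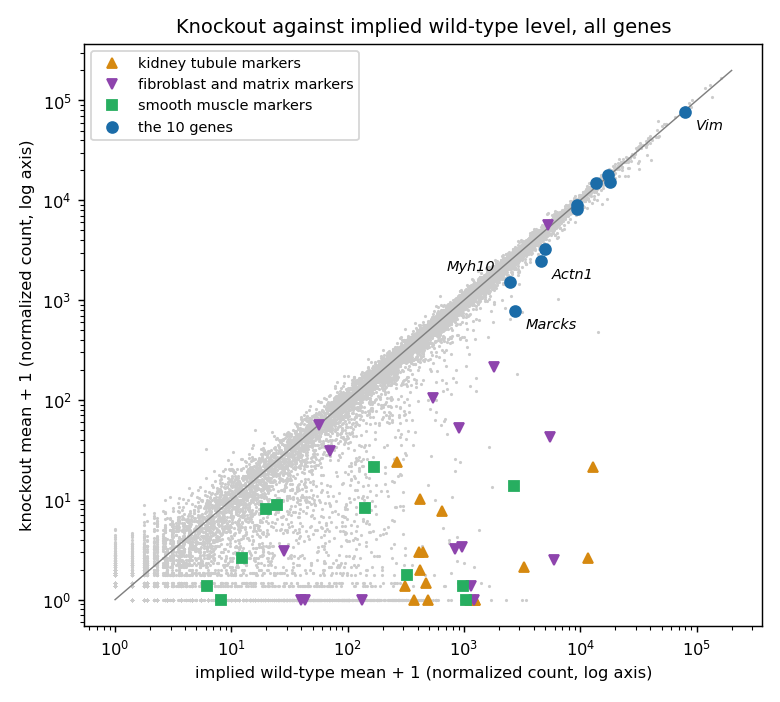
Knockout mean against implied wild-type mean, each as normalized count plus 1 on log axes, for all genes (grey), the 10 genes (circles) and markers of kidney tubule, matrix and smooth muscle, with the line of equality. Marcks, Actn1 and Myh10 lie below the line at high levels, and most markers lie near the floor in knockout.

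Of 10 actin and tropomyosin genes, 1 was called lower and 0 higher by the authors' DESeq2, beside 0.152% and 0.00691% of the genes with an adjusted p. The median log2 fold change of the list was -2.98. The 4 with the highest counts did not pass. Actb stood at 85853 and 84439 in knockout against an implied 89827, Actg1 at 53216 and 47003 against 46092, Tpm3 at 15736 and 14989 against 15344, and Tpm4 at 11713 and 11780 against 11669. Tpm1 stood at 932 and 1109 against 6480, and Tpm2, of muscle and fibroblasts, at 12.6 and 12.9 against 2712. The smooth muscle actins Acta2 and Actg2 stood at or below the level that 3 counts give, and Actg2 was the called gene. The list is not independent of the smooth muscle markers, with which it shares Acta2, Actg2 and Tpm2.

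Among 20 crosslinkers and bundlers outside the group 0 were called by the authors' DESeq2. Of the genes with an adjusted p, 0.152% were called lower and 0.00691% higher. The list had a median log2 fold change of -0.0010. Here 1 was lower and 2 higher at an unadjusted p under 0.05, beside 1.72% and 0.391% of all genes. Plastin-2 (Lcp1), the leukocyte bundler, stood at 38668 and 36000 against an implied 32705 and coronin-1A (Coro1a) at 18975 and 16678 against 14984. Their log2 fold changes in the authors' deposited table were 0.19 (SE 0.068) and 0.25 (SE 0.087). The muscle filamin Flnc stood at 4.84 and 5.31 against 145. The focal adhesion protein vinculin (Vcl) was the lower gene, at 814 and 835 against 2248, with a log2 fold change of -1.11 (SE 0.50) in the authors' deposited table.

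Among genes that build and turn over filaments none was called. Of 21 Arp2/3, WASP and formin genes 0 were called by the authors' DESeq2, beside 0.152% lower and 0.00691% higher of the genes with an adjusted p. The 21 genes had a median log2 fold change of 0.028. In that list 0 were lower and 2 higher at an unadjusted p under 0.05, beside 1.72% and 0.391% of all genes. Actr3, a core Arp2/3 subunit, stood at 13040 and 12875 against an implied 13867. The leukocyte formin Fmnl1, at 14039 and 12554 against 11450, was among the higher, and Wasl stood at 381 and 477 against 674. Of 17 turnover and capping genes 0 were called by the authors' DESeq2, beside the same 0.152% and 0.00691%. Their median log2 fold change was -0.029. By the same unadjusted threshold 0 of the 17 were lower and 1 higher, beside 1.72% and 0.391% of all genes. The filament-severing cofilin gene Cfl1 stood at 29596 and 28477 against 29727. The largest difference of the list was that of the profilin gene Pfn2, at 170 and 160 against 799 (log2 fold change -1.44, SE 0.85, in the authors' deposited table). Of the 17 fold changes 14 were negative, beside 5117 of the 10540 genes averaging at least 50 in knockout. Many of the 14 were close to the list median of -0.029.

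Of 12 spectrin, septin and anchor genes 0 were called by the authors' DESeq2, beside 0.152% lower and 0.00691% higher of the genes with an adjusted p. The 12 genes had a median log2 fold change of 0.042. Among them 2 were lower and 1 higher at an unadjusted p under 0.05, beside 1.72% and 0.391% of all genes. The septin gene Sept7 was among the lower, at 4920 and 5330 against an implied 7262, with a log2 fold change of -0.49 (SE 0.15) in the authors' deposited table and an adjusted p of 0.347 (the authors' DESeq2). The spectrin gene Sptbn1 was the other, at 4137 and 4492 against 6429. Of 11 intermediate filament, lamin and plakin genes other than Vim 0 were called by the authors' DESeq2, beside the same 0.152% and 0.00691%. At an unadjusted p under 0.05 this list held 0 genes, beside 1.72% lower and 0.391% higher of all genes. Lmna, encoding lamin A and C, stood at 5645 and 5318 against 5078, and the epithelial keratin Krt8 had 0 counts in knockout and an implied 545 in wild type.

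Ranked by the authors' log2 fold change among the 7005 genes averaging at least 500 in knockout, Marcks was second from the bottom, Actn1 at rank 18, Myh10 at 21 and Marcksl1 at 76. Tpm1 alone lay lower than Marcks, at -1.81 with an SE of 1.28 in the authors' deposited table. The next genes above Marcks were Rhob, a small GTPase, at 699 and 597 in knockout against an implied 2485, and Ctse, the protease cathepsin E, at 1291 and 131 against 1108. They were followed by the cytokine gene Il13, at 602 and 917 against 3169, Selenop, a selenium carrier, at 622 and 572 against 1770, and Vcl. The SEs of these 6 genes in the authors' deposited table ran from 2.50 to 9.15 times the median of genes of like mean, and 0 of the 6 were called by the authors' DESeq2, with Vcl alone at an unadjusted p under 0.05. Marcks was the 1 gene called among the 7 lowest. The minimum knockout mean leaves out genes with lower counts in knockout, whatever their fold change. Since the authors' comparison chose Marcks and Myh10, nothing is read from their ranks or from that call.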

How the data were processed

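The authors deposited raw counts, as whole reads for each gene and library. Normalized counts are a signal: the authors divided each library by its size factor, and their mean is that signal over 4 libraries. The authors' deposited comparison holds log2 fold changes with SE, a Wald statistic (a score) and each p-value, raw and adjusted. Per the submitters' processing notes the tools were STAR 2.6.1a, featureCounts and DESeq2 1.18.1, with build mm10. Annotation, multi-mapping, strand setting and model factors: not given in the sources used here. A further 4 per-sample columns, of wild-type libraries, belong to none of the samples given and stayed out.

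No new test between genotypes was run. The members and the 18 gene lists were chosen with earlier results of these data known. Gene IDs were matched by stable ID to GENCODE M21 (GRCm38; 16371 of 16385 genes), which gave coordinates and lengths. Overlapping genes are annotated at Actn1, Actn4, Ezr, Msn and Myh9, and reads there could be misassigned. In 26 rows the symbol is a date, and septins were matched by ID. TMM factors came from edgeR 4.0.16 in R 4.3.3, and the GC trend was a lowess fit on genes with a mean of at least 50, tested on simulated data (statsmodels 0.14.6). The SD over 2 libraries is a rough estimate, and the replicates differed by more than counting noise (chi-square over degrees of freedom 11.1). Genes all but absent from knockout have an implied wild-type mean of at least 100 and under 2% of it in knockout. Named are all members, from each list the 4 highest in knockout, the 2 with the largest fold change at a mean of 50 or more and any called gene, and the 6 genes of lowest fold change beside Marcks at a knockout mean of 500 or more. From these, the genes that show each group were given. A few results are not reported here.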

Additional observations from a re-analysis of the deposited data

How the results depend on the processing

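Both calls among the 10 genes stood with p-values adjusted over genes with a mean of at least 50, over every gene, or after the GC trend was subtracted. With near-absent genes left out of the adjustment 1 member was called lower in place of 2, Marcks (adjusted p 0.00178) and not Myh10 (0.0582), by recomputed Benjamini-Hochberg adjustment of the authors' DESeq2 p-values; fewer small p-values then enter the adjustment. Under all 4 of these settings 0 members were called higher. Subtracting the median fold change or the GC trend kept the sign of all 10 fold changes. The log2 ratio of Vim to its implied wild-type mean changed sign between -0.22 without replicate 1 and 0.10 without replicate 2; the cause was not tested. With a minimum mean of 50 the median log2 fold change turned positive for crosslinkers and bundlers (0.027), myeloid and dendritic markers (0.15, from 2 genes) and B cell markers (0.036, from 1 gene), since low genes drop out. Knockout levels moved by less than 1 SD under total-count and TMM scaling. Lengths from the union of exons, an alternative chosen after seeing the data, moved the TPM of most members. Both knockout libraries held at least 645 counts for each of the 10 genes; what limits the precision of each gene was not tested. No paired analysis was possible because the labels cover 1 group of samples.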
